A study of Homo sapiens with 8 samples.

Results

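Open chromatin was described at 3947 regions whose ATAC-seq summit lies in protein-coding sequence away from any promoter. A peak was taken when its summit, the base of highest pileup, fell in a coding interval of a protein-coding transcript and lay more than 2 kb from every annotated transcription start site (TSS). The annotation was GENCODE 44 on GRCh38, on chromosomes 1 to 22 and X. These peaks numbered 8916 of 892184 in 8 libraries and merged into 3947 regions. All peaks, merged separately by the same rule, formed 285909 regions. The bounds of the 2 sets can differ, so shares of members and of all merged regions are not a part against its whole. The choice used position only and no measured height. The larger share of peaks with a coding summit, 61.1% of 22942, lay within 2 kb of a TSS and was left out. The 668 peaks within 500 bp inside the distance limit had a median fold of 3.94, and the 860 peaks within 500 bp outside it had a median fold of 3.77.

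ATAC-seq maps DNA that the Tn5 transposase can reach. The cells were RUES2, a human embryonic line that is widely used, taken along a directed cardiac differentiation on a laminin matrix, with 2 replicate libraries at each of 4 stages. Undifferentiated cells were collected on day 0 (hESC). Mesoderm followed on day 2 (MES), progenitors of the heart on day 5 (CP) and cardiomyocytes on day 14 (CM). The hESC cells had already spent a day in Essential 8 medium with CHIR-99021, an inhibitor of GSK3 that activates Wnt signalling, and MES cells followed 48 hours in RBA medium with more of it. CP cells had in addition been given the Wnt inhibitor Xav-939, and CM cells were later moved to B27 supplement. No batch is named for the libraries, all are of 1 cell line and 1 genotype, and the peak lists hold no expression values with which the stage labels could be checked.

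Coding exons make proteins, but they also lie in chromatin that transcription factors can read. Some exons carry binding sites that act as enhancers of the gene itself or of a neighbour, and the DNA-organising factor CTCF binds within exons as well as between genes. Coding sequence is as a rule richer in G and C than the introns around it, a property that also marks many regulatory elements and that affects how Tn5 cuts and how libraries amplify.

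The sequences below are of hg38, on the plus strand, and cover the 200 bp around the summit of the library with the highest fold. They show the strongest region called in all 8 libraries, the strongest region of each stage pattern described further on, and a region in KLHL31 that holds a CTCF core. Capitals mark matches to any of 7 searched motifs, and a sequence with no capitals holds none. WASL lies at chr7:123692548-123692747 (gene on the minus strand, exon 9 of 11). KLHL31 lies at chr6:53652073-53652272 (minus, exon 3 of 3). KIZ lies at chr20:21214518-21214717 (plus, exon 8 of 13). SDCCAG8 lies at chr1:243378745-243378944 (plus, exon 13 of 18). DNAI4 lies at chr1:66848187-66848386 (minus, exon 3 of 3 of a transcript that is not the canonical one). ANKRD28 lies at chr3:15713477-15713676 (minus, exon 10 of 28). C2orf73 lies at chr2:54360269-54360468 (plus, exon 5 of 5).
WASL, all 8 libraries: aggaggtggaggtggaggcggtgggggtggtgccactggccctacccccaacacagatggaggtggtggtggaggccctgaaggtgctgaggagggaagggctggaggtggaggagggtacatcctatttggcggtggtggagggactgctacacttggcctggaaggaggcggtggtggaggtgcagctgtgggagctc
KLHL31, all 8 libraries: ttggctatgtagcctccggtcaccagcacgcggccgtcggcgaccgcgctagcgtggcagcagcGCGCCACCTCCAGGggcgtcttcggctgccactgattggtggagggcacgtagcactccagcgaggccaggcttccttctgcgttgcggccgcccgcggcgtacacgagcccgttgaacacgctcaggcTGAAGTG
KIZ, hESC alone: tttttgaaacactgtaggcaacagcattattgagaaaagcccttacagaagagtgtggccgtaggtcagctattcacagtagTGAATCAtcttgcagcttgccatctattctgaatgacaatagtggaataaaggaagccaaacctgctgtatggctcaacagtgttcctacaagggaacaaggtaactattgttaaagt
SDCCAG8, MES alone: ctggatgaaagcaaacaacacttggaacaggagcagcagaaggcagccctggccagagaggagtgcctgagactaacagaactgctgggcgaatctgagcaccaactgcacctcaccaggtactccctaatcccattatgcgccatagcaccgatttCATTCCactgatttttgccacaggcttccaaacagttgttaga
DNAI4, CP alone: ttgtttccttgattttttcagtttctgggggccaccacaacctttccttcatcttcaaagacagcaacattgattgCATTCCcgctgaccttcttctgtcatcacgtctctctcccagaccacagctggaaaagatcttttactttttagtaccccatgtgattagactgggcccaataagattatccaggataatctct
ANKRD28, CM alone: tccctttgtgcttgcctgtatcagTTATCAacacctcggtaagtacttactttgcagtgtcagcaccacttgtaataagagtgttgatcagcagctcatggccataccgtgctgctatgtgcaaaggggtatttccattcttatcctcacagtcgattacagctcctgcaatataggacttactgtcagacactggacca
C2orf73, CP and CM: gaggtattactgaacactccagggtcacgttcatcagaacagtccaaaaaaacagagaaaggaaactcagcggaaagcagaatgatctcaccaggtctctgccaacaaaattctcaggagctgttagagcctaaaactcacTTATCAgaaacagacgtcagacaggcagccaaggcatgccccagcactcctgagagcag
The WASL window held 65.0% GC and the KLHL31 window held 68.5% GC, and the windows of the stage patterns held 41.0% to 51.0%.

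Coding-exon peaks made up a small share of every list. Replicates 1 and 2 of hESC had 977 and 1804, those of MES 1041 and 1402, those of CP 1113 and 1078 and those of CM 1081 and 420. As a share of all peaks, hESC had 0.947% and 1.16%, MES 0.961% and 0.898%, CP 1.12% and 0.897% and CM 1.17% and 0.753%, against 0.628% of counted bases that are eligible coding sequence. The lowest and the highest share both came from CM, so the stages overlapped completely. The lists themselves ranged from 55777 to 156179 peaks, with CM replicate 2 the shortest. They give no read totals, and the depth behind a peak is known only as its pileup, with a median of 21 to 32 extended reads over a background of 3.48 to 6.06 at the coding-exon peaks.

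Peaks were denser in coding exons than in introns or between genes, each class taken over all counted chromosomes and not around each exon. Per Mb of eligible sequence, all over 2 kb from a TSS, there were 61.0 ± 21.4 peaks in coding exons (SD, n = 8 libraries), 31.8 ± 11.1 in introns and 29.5 ± 10.9 in intergenic sequence, compared with 89.6 ± 14.3 near a TSS. The log2 ratio of coding exon over intron was 0.93 ± 0.19 and was above 0 in 8 of 8 libraries, from 0.70 in MES replicate 2 to 1.18 in CM replicate 1. Over intergenic sequence it was 1.05 ± 0.20. Both passed an exact sign-flip test over libraries (p = 0.0078, the smallest it can give; adjusted p = 0.0117 over 6 measures).

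The difference in density went with base composition. Coding-exon peaks held 60.3% ± 0.71 GC in the 200 bp around the summit and intron peaks 52.6% ± 0.75, a difference of 7.63 ± 0.57 percentage points in 8 of 8 libraries (exact sign-flip test, adjusted p = 0.0117). When coding and intron bases were first sorted by the GC content of their own 200 bp window, the excess was no longer seen over most of the range. Below 40% GC the log2 density ratio was 0.21 ± 0.32 (5 of 8 libraries above 0; exact sign-flip test, adjusted p = 0.137). At 40 to 50% GC it was -0.07 ± 0.10 (2 of 8 libraries above 0; exact sign-flip test, adjusted p = 0.117), and at 50 to 60% it was -0.09 ± 0.16 (3 of 8; exact, adjusted p = 0.156). In the class of 60 to 70% coding exons held fewer peaks than introns of like GC, with a ratio of -0.63 ± 0.22 and 0 of 8 libraries above 0 (exact, adjusted p = 0.0195). Only from 70% upward was the ratio above 0 in 8 of 8, at 0.51 ± 0.19 (exact, adjusted p = 0.0195), in a class that holds 2.36% of the coding bases and 0.138% of the intron bases. The class of 60 to 70% GC holds 15.6% of coding but 2.06% of intron bases. Against intergenic sequence of like GC the ratio was -1.01 at 60 to 70%, was -0.06 from 70% upward (exact, adjusted p = 0.664), and passed the test with a positive sign in no class.

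The density also differed with the length of the exon, in classes set against all introns and not matched for GC. The log2 ratio over introns was 0.09 ± 0.17 for coding intervals of up to 100 bp (exact sign-flip test, adjusted p = 0.188). It was 0.76 ± 0.13 at 101 to 200 bp, 1.43 ± 0.23 at 201 to 500 bp, 1.71 ± 0.28 at 501 to 1000 bp and 0.55 ± 0.27 above 1000 bp, each above 0 in 8 of 8 libraries (exact, adjusted p = 0.0098). The median member sat in a coding interval of 205 bp, while the median over all eligible intervals, each counted once, was 126 bp. These medians are not like for like, because a longer interval holds more bases for a summit to fall on. Intervals of up to 100 bp hold 13.2% of the eligible coding bases, and those of 101 to 200 bp hold 40.8%.

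The members had a slightly lower fold than intron peaks, and no difference in replicate overlap was shown. The median fold, the pileup over the local background as the lists give it, was 4.40 ± 0.48 for coding-exon peaks and 4.63 ± 0.39 for intron peaks. The log2 ratio of the medians was -0.08 ± 0.04 and was below 0 in 8 of 8 libraries (exact sign-flip test, adjusted p = 0.0117). The median pileup was not lower, at 27.6 ± 3.62 extended reads for coding-exon peaks and 25.5 ± 2.83 for intron peaks. The background was 4.96 ± 0.84 and 4.24 ± 0.73 in the same order. Neither difference was tested. The median -log10 q differed by -0.23 ± 0.59 (2 of 8 libraries above 0; exact, adjusted p = 0.30). A member overlapped a peak of the other replicate in 60.2% ± 18.0 of cases and an intron peak in 60.4% ± 16.5, a difference of -0.20 ± 5.72 points (exact, adjusted p = 0.93). More than 5 kb from any TSS the log2 fold ratio was -0.033 and did not pass (exact, adjusted p = 0.199). In lists of equal length the overlap of members was higher by 3.28 points (exact, adjusted p = 0.0469). The range over libraries was wide, from 28.2% in CM replicate 1, whose partner list is the shortest, to 83.6% in hESC replicate 1, whose partner list is among the longest.

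None of 4 measures of the members was shown to follow the order of the stages. Pearson's r with stage order was -0.16 for the share of peaks in coding exons (exact permutation test over 2520 assignments of 8 libraries, p = 0.70; Spearman's rho -0.15, p = 0.76). It was -0.02 for the density ratio over introns (exact p = 0.96; rho 0.05, p = 0.95) and -0.02 for the log2 fold ratio over intron peaks (exact p = 0.97; rho -0.15, p = 0.76). For the share of coding-exon peaks with a CTCF core it was -0.47 (exact p = 0.23; rho -0.44, p = 0.30). Adjusted over the 4 relations, every p was 0.94 or higher. With 1 library left out, the CTCF relation passed only without hESC replicate 2, where r was -0.89 (exact permutation test, adjusted p = 0.0381). With any other library left out, r was between -0.53 and -0.29 (exact, adjusted p = 0.519 or higher). Leaving out both hESC libraries gave -0.91 (exact, adjusted p = 0.178), and leaving out both CM libraries gave 0.17 (exact, adjusted p = 0.756).

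The regions were narrow and most reached beyond the coding sequence. Their median width was 301 bp, with quartiles of 235 and 421 bp. A median of 59.2% of a region's length was coding, 19.8% of regions were wholly coding and 66.6% were wider than the coding interval that held their summit. The strongest summit lay a median of 54 bp from the edge of that interval. Of the 3785 regions in a canonical transcript, 26.3% had their summit in the last exon, which holds 23.9% of the eligible canonical coding bases. The median distance to the nearest TSS was 7630 bp.

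Most members, like most regions of all peaks, were called in few libraries. A peak in 1 library alone accounted for 1625 regions (41.2%), against 40.7% of all merged regions and 43.9% of intron regions. Of the 1625, 483 came from hESC replicate 2 and 334 from CM replicate 1. The share of single-library regions that CM replicate 1 gave, 20.6%, was above the 13.04% that it gave among all peaks, while MES replicate 2 gave 13.7% against 21.6%. At the other end, 278 regions (7.04%) were called in all 8 libraries, against 9.83% of all merged regions, 4.16% of intron regions and 30.2% of regions near a TSS.

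A region counted as present at a stage when both of its libraries had a peak there. This held for 1157 regions at hESC (29.3%), 1119 at MES (28.4%), 885 at CP (22.4%) and 449 at CM (11.4%). At any stage it held for 1669 (42.3%). Among all merged regions the shares were 29.6%, 31.4%, 23.9%, 14.8% and 46.2% in the same order. The counts of members depend on the demand for a peak in both libraries of a pair. With CM replicate 1 alone the count at CM was 1362, with hESC replicate 2 alone that at hESC was 2190, and with MES replicate 2 alone that at MES was 1815. At CP it was 1418 without replicate 2 and 1393 without replicate 1. Of all 3947 regions, 658 (16.7%) were present at exactly 1 stage, against 19.7% of all merged regions. As a share of the regions present at any stage this was 39.4% (95% Wilson interval 37.1 to 41.8). The same share was 42.6% over all merged regions, 50.6% in introns and 23.6% near a TSS. The commonest patterns were hESC with MES and CP (325 regions, 8.23% against 6.03% of all merged regions) and hESC alone (293, 7.42% against 7.47%). All 4 stages (278, 7.04% against 9.83%) and hESC with MES (201, 5.09% against 4.70%) followed. Regions shared by CP and CM alone numbered 30 (0.760% against 0.892%).

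A stricter pattern asked for a peak in both libraries of a stage and in no other library. It held for 90 regions of hESC (2.28%, against 3.01% of all merged regions) and 47 of MES (1.19%, against 2.76%). It held for 19 of CP (0.481%, against 0.729%), 34 of CM (0.861%, against 1.05%) and 11 of CP with CM (0.279%, against 0.448%). Each share was below that of all peaks, and below that of introns, which held 3.15%, 2.90%, 0.788%, 1.38% and 0.562% in the same order. Whether these shares differ was not tested.

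The regions called in all 8 libraries with the highest mean fold lay in WASL, ADGRL3, CNST, NPAS3 and SCN8A. WASL encodes N-WASP, which starts branched actin filaments, and its region (chr7:123692381-123692946) contains the 200 bp window printed above. Its hESC libraries had a fold of 15.1 and 16.7, MES 17.2 and 20.8, CP 12.5 and 10.5, and CM 5.21 and 4.52, with pileups of 81 and 112 extended reads in hESC but 28 and 15 in CM. The CM values lay below all others and the CP values between CM and the earlier stages. ADGRL3 encodes latrophilin 3, an adhesion receptor of synapses, and its region in exon 4 of 27 did not follow that pattern. There hESC had a fold of 9.97 and 9.89, MES 11.4 and 14.0, CP 14.7 and 16.8, and CM 11.5 and 8.67, so that CP was highest and CM overlapped hESC. NPAS3 encodes a transcription factor of the bHLH-PAS family and was at 6.21 and 6.06 in CM against 8.89 to 16.5 elsewhere. SCN8A encodes the sodium channel NaV1.6, and CNST encodes consortin, which brings connexins to the membrane. SCN8A ranged from 7.90 in CM replicate 1 to 14.6 in MES replicate 2, and CNST from 6.78 in CM replicate 2 to 16.0 in MES replicate 2.

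To compare such regions across libraries of unlike signal, each fold was divided by the library's median over all 28115 merged regions that were called in all 8. Both CM libraries lay below the other 6 in 51 of the 278 coding-exon regions (18.3%), against 8.75% of all such regions, 16.4% of intron regions and 4.33% of those near a TSS. Both CM libraries lay above the other 6 in 19 coding-exon regions (6.83%), against 22.7% of all, 7.33% of intron and 31.8% of near-TSS regions. Both hESC libraries lay below in 21 (7.55%, against 7.18% of all) and above in 17 (6.12%, against 5.36%). For CM, both shares of the coding-exon regions were nearer to those of introns than to those near a TSS. In the raw fold the median over the 278 regions was 4.59 and 4.81 in CM and 5.39 to 7.07 in the other libraries. Over all 28115 regions it was 5.90 and 6.22 in CM and 6.58 to 8.31 in the others.

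The regions of hESC alone were led by KIZ, CTTNBP2 and FOCAD. KIZ encodes a centrosomal protein that holds the spindle pole together, and its fold was 7.25 and 8.72 in the 2 hESC libraries. CTTNBP2, a cortactin-binding protein, was at 7.99 and 7.22, and FOCAD, named after focal adhesions, was at 7.02 and 6.94. Replicates were close in all of these, with pileups of 28 to 65 extended reads. No peak was called there in the 6 later libraries, which says that the signal did not pass the threshold and not that it was 0.

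The regions of MES alone held the strongest stage-restricted member by the lower of both folds. SDCCAG8, a centrosomal and ciliary protein, reached 11.5 and 13.4, with its summit 32669 bp from the nearest TSS. CEP152, a scaffold of centriole duplication, was at 8.37 and 8.51 in a window with a GATA and a T-box match. MAP4K4, a kinase upstream of JNK signalling, was at 7.09 and 7.30. T-box factors such as Brachyury (TBXT) are defining regulators of mesoderm, but a match to their consensus is only a string of letters here.

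The regions of CP alone were less even between replicates. DNAI4, a component of ciliary dynein, was at 5.98 and 9.12. PLSCR5, of the phospholipid scramblase family, was at 5.34 and 12.7, and SPAG16, of the ciliary central apparatus, at 4.91 and 7.43. In each the second CP library was higher, as it was in general, with a median intron fold of 5.09 against 4.22.

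The 3 strongest of the 34 regions of CM alone, by the lower of both folds, lay in ANKRD28, LPXN and AGXT2. ANKRD28, a subunit that directs the phosphatase PP6, was at 7.36 and 8.20 and held a GATA match at 74 bp to the left of the summit. LPXN encodes leupaxin, a focal adhesion protein of the paxillin family, and was at 7.12 and 7.14. AGXT2 encodes a mitochondrial aminotransferase and was at 6.07 and 6.37, in a window with NKX and TEAD matches. Of the regions shared by CP and CM alone, C2orf73 had a CP fold of 6.62 and 8.27 and a CM fold of 7.90 and 8.66, with a GATA match at 43 bp to the right of the summit. CFAP44, a ciliary protein, was at 5.84 and 10.4 in CP and 5.56 and 6.08 in CM. SCIN, which encodes the actin-severing protein scinderin, was at 5.55 and 8.84 in CP and 8.27 and 7.18 in CM.

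To see which factors' motifs the members hold, 7 short consensus sequences were counted on both strands in the 200 bp around each summit. They were the CTCF core CCNNNAGNNGGCNC, the GATA motif (AGATAA or AGATAG or TGATAA or TGATAG), the NKX motif TNAAGTG, the T-box motif TCACACCT, the TEAD motif GGAATG, the AP-1 motif TGANTCA and the POU octamer ATGCAAAT. GATA4, NKX2-5, TBX5 and TEAD1 act in the heart, POU5F1 in pluripotent cells, and AP-1 in many cells, while CTCF anchors chromatin loops. A CTCF core was found in 7.74% ± 0.80 of coding-exon peaks (n = 8 libraries) and 4.12% ± 0.44 of intron peaks, which is higher in 8 of 8 libraries. A GATA match was found in 14.7% ± 2.87 of coding-exon and 28.7% ± 5.56 of intron peaks, which is lower in 8 of 8. NKX, T-box, TEAD, AP-1 and the octamer were also less frequent in coding exons in 8 of 8 libraries, by 4.99, 0.77, 6.48, 4.09 and 1.09 percentage points. All 7 differences passed the exact sign-flip test (p = 0.0078, adjusted p = 0.0078).

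Among peaks of like GC content the differences kept their sign and were smaller, except for T-box at 50 to 60% GC (-0.85 points). Among peaks of 50 to 60% GC the difference was 0.86 points for CTCF (6 of 8 libraries higher; exact sign-flip test, adjusted p = 0.102) and fell to -4.55 points for GATA (0 of 8 higher; exact, adjusted p = 0.0273). Among those of 60 to 70% it was 1.87 points for CTCF (8 of 8) and -3.66 points for GATA (0 of 8), with an exact adjusted p of 0.0137 for both. Windows at the middle of all 104793 eligible coding intervals, of 46.3% GC on average, held a CTCF core in 0.995%, a GATA match in 28.0%, NKX in 9.48%, T-box in 0.821%, TEAD in 10.8%, AP-1 in 5.30% and the octamer in 0.960%.

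The motifs were spread unevenly over the stage patterns. A CTCF core was found in 13.7% of the 278 regions called in all 8 libraries (95% Wilson interval 10.1 to 18.2), which had 65.1% GC, and in 2.72% of the 2278 regions present at no stage. In introns the same classes held a core in 10.3% and 1.56%. For KLHL31, a muscle-expressed gene of the kelch family, the core lay 30 bp to the left of the summit. This region was chosen for display after its values were seen, as the strongest with a core. Its fold was 9.36 to 12.3 in the 6 libraries before CM and 7.47 and 6.04 in CM. Among the patterns of 1 stage, a GATA match was held by 11.6% of the 293 hESC regions (8.42 to 15.8), 22.3% of 184 at MES (16.9 to 28.8), 32.7% of 104 at CP and 35.1% of 77 at CM (25.4 to 46.2). The intervals cover counting error over regions and not the spread between libraries. The CM regions also had the lower GC content, 53.6% against 57.5%. In introns the same patterns gave 21.7%, 39.0%, 37.2% and 51.1%. NKX matches were found in 16.9% of the CM regions of coding exons and in 5.46% of those of hESC, and in introns in 20.4% and 9.75%.

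Counted over all coding-exon peaks of each library, a GATA match was held by 12.3% and 11.9% at hESC, 13.1% and 15.4% at MES, 12.4% and 19.4% at CP, and 14.6% and 18.3% at CM. The stages overlapped, and the relation with stage order did not pass the test (r = 0.62, exact permutation p = 0.106, adjusted p = 0.141 over 4 relations; rho 0.68, p = 0.083; r = 0.36 without hESC and 0.59 without CM). In intron peaks it did (r = 0.84, exact p = 0.0103, adjusted p = 0.0206; rho 0.83, p = 0.020; r = 0.55 without hESC and 0.80 without CM, neither past the exact test). The octamer share of intron peaks fell with stage order (r = -0.96, exact p = 0.00079, adjusted p = 0.0032; rho -0.98; r = -0.94 without hESC and -0.98 without CM). In coding-exon peaks the octamer was found in only 0.238% to 0.610% of peaks (r = -0.42, exact p = 0.278). These 4 relations were added after the values were seen, and the difference between coding exon and intron in them was not tested.

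The 3947 regions lay in 2902 genes, which is 18.6% of the 15610 genes with eligible coding sequence. A single region was held by 2196 genes, 493 had 2, 146 had 3 and 67 had 4 or more. ZAN, which encodes zonadhesin of the sperm head, had the most with 12 regions over 8.40 kb of coding sequence, and none of them was called in all 8 libraries or exceeded a fold of 5.88. SYNE1, the giant nuclear envelope protein nesprin 1, had 11 over 19.8 kb with a highest fold of 12.2. SPTBN4, the spectrin of axon initial segments, had 10 over 5.75 kb, and 4 of these were called in all 8 libraries. The strongest SPTBN4 region reached 10.3 in CP replicate 2 and its lowest value was 5.88 in CM replicate 2. ENSG00000188897 and HMCN2 held 8 each, FBN3 and KALRN 7, and LAMA2, DNAH9 and FCGBP 6. ENSG00000188897 has no symbol in the annotation. Per kb of coding sequence the 10 genes held 0.51 to 1.74 regions.

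Gene groups were compared by the number of regions per Mb of eligible coding sequence, which was 214 over all protein-coding genes. No test was made for the lists. The list of cardiac factors stood at 541, with 25 regions in 21 of 41 genes. Collagens and laminins stood at 321 (56 regions), solute carriers at 301 (94), ion channels at 280 (66), giant cytoskeletal genes at 252 (74), sarcomere genes at 243 (51) and mesoderm factors at 227 (5). Chromatin regulators were at 208 (40), clustered protocadherins at 153 (5), zinc finger genes at 116 (91), giant cadherins at 109 (7), olfactory receptors at 101 (10), pluripotency factors at 95.1 (3) and mucins at 53.3 (7). HOX genes held 1 region, and histone genes, of which 4 had 0.581 kb of eligible sequence in all, held none. Zinc finger and olfactory receptor genes belong to large families of related copies, where reads of a mapping quality under the authors' limit were not kept, and the part of this in their counts was not tested.

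Cardiac factors with a coding-exon region were GATA4, NKX2-5, TBX2, TBX3, TBX5, TBX20, ISL1, MEF2A, MEF2C, MEF2D, SMYD1, ZFPM1, IRX4, IRX6, TEAD1, HEY2, TGFBR2, NFATC1, KLF2, BMP2 and RBM20. The list holds transcription factors of heart development, such as GATA4 and TBX5, and other genes of the lineage, such as the splicing factor RBM20. Their 25 regions were GC-rich, with a median of 65.0%, and weak, with a median mean fold of 3.08 against 3.98 over all members. They were present at hESC in 12 cases, at MES in 11, at CP in 7 and at CM in 3, and 8 were called in 1 library alone. Over all members the shares were 29.3%, 28.4%, 22.4% and 11.4% present and 41.2% in 1 library. The strongest was in the last exon of MEF2C, a muscle regulator, 6802 bp from the nearest TSS (chr5:88722492-88723132). The hESC libraries had a fold of 4.35 and 8.01, MES 6.10 and 6.89, CP 3.85 and 11.8, and CM replicate 2 had 4.24, with no peak in CM replicate 1. HEY2, a Notch target of the ventricle, was at 8.24 to 11.5 in hESC and MES, at 6.20 and 7.21 in CP and at 5.31 in CM replicate 1. TBX5 was called in all 8 libraries and was at 4.24 to 5.05 in CM and 6.78 to 9.29 elsewhere. GATA4 stayed between 2.27 and 3.68 in 7 libraries, and each of the 2 NKX2-5 regions was called once. In MEF2C, HEY2 and TBX5 the raw fold was not highest in CM. Raw folds were lower in CM in general. Over all 28115 regions called in every library, the median was 5.90 and 6.22 in CM and 6.58 to 8.31 elsewhere. The folds of these genes were not divided by that median here.

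Pluripotency factors with a region were DNMT3B, TRIM71 and GDF3, and mesoderm factors were TBX6, WNT5A, WNT5B and DLL3. DNMT3B, a DNA methyltransferase of early development, had a region in its last coding exon (chr20:32807666-32808111). Its fold was 4.70 to 7.41 in the 6 earlier libraries and 4.54 and 5.07 in CM, so that the stages overlapped. DLL3, a Notch ligand of the segmenting mesoderm, was called in all 8 libraries, from 5.23 in hESC replicate 2 to 7.26 in CM replicate 2. Both CM libraries, at 6.71 and 7.26, were the highest.

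Sarcomere genes held 51 regions in 27 of 60 genes, and 28 of these regions were called in 1 library alone, against 41.2% of all members. They were present at hESC in 8 cases, at MES in 6, at CP in 9 and at CM in 4, where 29.3%, 28.4%, 22.4% and 11.4% of all members were present. The strongest lay in exon 9 of 79 of DMD, the dystrophin gene, at chrX:32697772-32698030. It was at 5.77 and 8.60 in CP and 4.49 in CM replicate 1, with no other peak. PALLD, which encodes the actin-bundling protein palladin, held a region called in all 8 libraries, at 4.36 to 8.42. It had peaks in the hESC libraries already.

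TTN, the giant spring of the sarcomere, is the longest coding sequence of the genome, and the study is in large part about this gene. It held 6 coding-exon regions over 63.2 kb of eligible coding sequence, and none of them was present at any stage in both replicates. The region in exon 100 of 363 was called in hESC replicate 2 and CP replicate 1, at 4.09 and 4.06. Exon 4 was called in hESC replicate 2 and CM replicate 1, at 2.78 and 3.64. Exons 83, 48, 14 and 13 were each called once, in CP replicate 1, hESC replicate 2, MES replicate 1 and hESC replicate 1, at 4.06, 3.74, 4.07 and 4.67. The pileups of these calls were between 17 and 32 extended reads. At these 6 regions, a peak shared by both replicates was not detectable at this depth at any stage. Peaks with a summit in a TTN intron were not examined, even where they reach into a coding exon. Exons nearer to a TSS were not examined either.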

How the data were processed

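Libraries of RUES2 cells were grouped by the stage in the labels, with replicate numbers from the titles. The design text calls the replicates biological. The authors mapped paired reads to hg38 with BWA 0.7.13, discarded duplicates (Picard) and alignments of a mapping quality of 30 or less, and ran MACS2 2.1.0 on each library, with each read shifted 100 bp upstream and extended to 200 bp, and a q-value of 0.01. The deposited lists give, for each peak, its fold of pileup over local background (a ratio), −log10 of its p-value and of its q-value, and a display score. Only the score was not used. Pileup and background were recovered from fold and −log10 p for 100% of 892184 peaks.

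Each base was assigned to near TSS (within 2 kb), coding exon, other exon, intron or intergenic sequence with GENCODE 44, and densities are per Mb of bases without N. Member peaks were merged over libraries at 1 bp, and a region was called in a library when any peak overlapped it. Coding exons and introns were compared by an exact sign-flip test over the 8 libraries, and relations with stage order by exact permutation over 2520 assignments. Tests were two-sided at a threshold of 0.05, with Benjamini-Hochberg adjustment within 4 relations, 6 paired measures, 7 motifs or 5 classes. With 2 libraries a stage, a single comparison of stages could not give a p below 0.333, so none was made. Intervals cover counting error only.

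The members, lists and tests were chosen with earlier results of these data known. Genes were named by rule: the 5 regions called in all 8 libraries with the highest mean fold, the 3 regions of each stage pattern with the highest lowest fold, the 10 genes with most regions, all regions in TTN, and the genes of the pluripotency, mesoderm, cardiac and sarcomere lists that held a region. Statistics were tested on simulated data. Computation was in Python 3.11.15 with pysam 0.24.0, pandas 2.3.3, numpy 2.4.6, scipy 1.17.1 and matplotlib 3.10.9, and samtools 1.23.1 indexed the genome.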

Additional observations from a re-analysis of the deposited data

How the results depend on the processing

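Of 424 recomputed values, 347 kept their direction and their side of the threshold, or stayed within the spread or 1.5 times of the count. The density ratios over introns and over intergenic sequence kept both under every alternative of annotation, peak threshold, list length and library. Within GC classes the ratio over introns kept them only from 70% upward (0.51). It was 0.21 at 20 to 40%, -0.075 at 40 to 50%, -0.090 at 50 to 60% and -0.63 at 60 to 70%. The ratio over intergenic sequence was 0.45, 0.00077, -0.29 and -1.01 in the same classes and -0.062 from 70% upward. For coding intervals of 1 to 100 bp the ratios were 0.093 and 0.22. The lower fold of coding-exon peaks no longer passed more than 5 kb from any TSS (-0.033). Among peaks of like GC, chosen after seeing the data, CTCF (0.86 points) and AP-1 (-1.35) no longer passed at 50 to 60%, nor T-box (-0.29) at 60 to 70%.

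The relations with stage order changed sign under several alternatives. The share of peaks gave 0.088 without the hESC libraries, and -0.55 to 0.25 with each library left out. The density ratio gave 0.042 by day of differentiation, 0.0087 with the midpoint in place of the summit, 0.0091 beyond 5 kb, 0.30 without the hESC libraries, and -0.40 to 0.25 with each library left out. The CTCF share gave 0.17 without the CM libraries, and -0.89 to -0.29 with each library left out. The fold ratio gave 0.10 at a −log10 q of at least 5, 0.80 at one of at least 20 (added after seeing the data; exact permutation test, adjusted p = 0.0381), 0.76 in lists of equal length (exact, adjusted p = 0.0540), 0.16 with TSSs of protein-coding transcripts only, 0.31 without the CM libraries, and -0.28 to 0.38 with each library left out. The cause was not tested.

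The difference in median −log10 q was 0.18 at a −log10 q of at least 5, 0.88 in lists of equal length (exact sign-flip test, adjusted p = 0.0469) and 0.011 with the midpoint. The difference in replicate overlap was 1.46 at a −log10 q of at least 5, 3.28 in lists of equal length (exact, adjusted p = 0.0469), 0.94 with the midpoint, 0.29 with TSSs of protein-coding transcripts only, and -0.58 to 0.45 with each library left out.

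In lists of equal length, 55777 peaks each, there were 1292 regions, of which 498 were present at hESC, 454 at MES and 440 at CP, and 37.0% of those staged were at a single stage. More than 5 kb from a TSS, 750, 723, 573 and 293 were present at hESC, MES, CP and CM. Counting only peaks whose own summit is coding gave 689, 673, 519 and 244, with 47.0% at a single stage. A peak of either replicate gave 2402, 2123, 1983 and 1516, with 46.0%. The stricter demand of no peak in any other library gave 11.4%. With each library left out, the counts were 1125 to 2190, 1085 to 1815, 862 to 1418 and 433 to 1362, and the single-stage share 41.5 to 54.7%.

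Deviations of same-numbered libraries of different stages had correlations of -0.03 to 0.06 over the 3947 regions, so no pairing by replicate number was shown. This cannot tell whether such libraries came from the same differentiation, since 41.2% of the regions were called in 1 library alone. With a replicate block the relations with stage order were -0.18 for the share of peaks, -0.03 for the density ratio, -0.50 for the CTCF share and -0.02 for the fold ratio, and no call changed. The lists hold peaks only above their threshold, so a missing peak is no measurement of closed chromatin, and CM, with 55777 peaks in its shorter list, limits what could be called there.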

Other observations

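The share of coding-exon peaks was higher in libraries whose peaks were weaker. The relation was noticed in the data and then computed. Over the 8 libraries, the share had a Pearson's r of -0.81 with the median fold of the library's intron peaks (exact permutation test, p = 0.0137; Spearman's rho -0.69, p = 0.069), and the log2 density ratio over introns had an r of -0.86 (exact p = 0.0074; rho -0.62, p = 0.115). Adjusted over both relations, p was 0.0137 for each r and 0.115 for each rho. Without the 2 libraries farthest from the median fold, r was -0.66 for the share (exact permutation test, n = 6, p = 0.128). For the density ratio it was -0.68 (exact, n = 6, p = 0.153). Spearman's rho was -0.31 for the share and -0.09 for the density ratio. The relation was thus not shown without those 2 libraries, and 6 libraries leave the test little power. The libraries with the lowest median intron fold were CM replicate 1 at 3.95, CP replicate 1 at 4.22 and hESC replicate 2 at 4.45, and they had the 3 highest shares, 1.17%, 1.12% and 1.16%.

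Over the chromosomes, the number of regions per Mb of eligible coding sequence ran from 129 on chromosome X to 293 on chromosome 20. All merged regions were also sparsest on X, at 63.6 per Mb against 105 on chromosome 20. In 25 regions the summit lay in the coding sequence of a second gene as well.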
